A study of Mus musculus with 4 samples.

Results

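The Cdx and ParaHox genes, Cdx1, Cdx2, Cdx4, Gsx1, Gsx2 and Pdx1, were examined for H3K27me3 in yolk sac erythro-myeloid progenitors (EMPs). H3K27me3, trimethylation of lysine 27 of histone H3, is the mark that the Polycomb enzyme Ezh2 places on repressed genes. The rule for choosing the genes and their peaks uses gene names and distances and no measured value. The genes and the lists below were nevertheless chosen with earlier results of these data known. Their counts are therefore not those of a blind choice. Peaks were assigned to the genes where the annotated tables named one of these genes or where the peak lay in the gene or within 20 kb of it. This gave 49 of the 10223 peaks of the library from 500 EMPs and 33 of the 15282 peaks of the library from 15000 EMPs. Of these, 40 and 25 were named for a member in the tables, 9 and 8 entered by distance alone, and 4 and 8 by name alone.

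Both H3K27me3 libraries came from E10.5 C57BL/6 yolk sacs and were profiled by CUT&RUN, in which an antibody directs a nuclease to the mark and the released DNA is sequenced. The genotype label combines Ezh2fl/fl and Tie2-Cre+/+ with the words wild type, and wild type is how the study treats these EMPs. Tie2-Cre acts in endothelial cells and their progeny, to which EMPs belong, and the label alone does not say whether Ezh2 was recombined. EMPs were sorted by surface markers that include KIT, CD41 and CD16/32, and how many yolk sacs the cells of each library came from is not given. An IgG library with a non-specific antibody accompanied each cell number, and its peaks were not analysed here. With 1 H3K27me3 library for each cell number there was no spread between replicates and no test. Each value below describes a single library. The peak lists used here give positions with no height or read count, so a peak was present or absent, and no interval from depth could be set. Cell number also went with sequencing depth and alignment rate (both lower for 500 EMPs, per the reporting summary), read length, amplification cycles, sequencer and peak threshold (stricter for 500 EMPs, per the methods), and these cannot be told apart. A called peak does not tell whether all sorted cells or a part of them carried the mark.

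ParaHox genes are the evolutionary sister group of the Hox genes and encode homeodomain transcription factors. Gsx1 and Gsx2 pattern the neural tube and the ventral forebrain, Pdx1 is required for the pancreas, and the caudal-related genes Cdx1, Cdx2 and Cdx4 set posterior identity in the embryo by activating Hox genes. Cdx2 also specifies the trophectoderm and the intestinal epithelium, and Cdx genes act upstream of Hox genes in the formation of embryonic blood. Genes of this kind are classical Polycomb targets in cells that do not use them.

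In the mouse, Gsx1, Pdx1 and Cdx2 form the ParaHox cluster on chromosome 5, and the other genes lie apart from it. The promoters of the members that RefSeq sequences could be matched to (5 of 6, GRCm38.p6) are shown because peaks of both libraries meet at them in different ways. Each runs 5′ to 3′ from 250 bases before to 50 bases after the RefSeq gene start, on the strand of the gene, and capitals mark CG dinucleotides, which are dense at many vertebrate Polycomb targets. The RefSeq starts of Pdx1 and Cdx2 differ from the GENCODE starts used for the windows below.
Gsx1: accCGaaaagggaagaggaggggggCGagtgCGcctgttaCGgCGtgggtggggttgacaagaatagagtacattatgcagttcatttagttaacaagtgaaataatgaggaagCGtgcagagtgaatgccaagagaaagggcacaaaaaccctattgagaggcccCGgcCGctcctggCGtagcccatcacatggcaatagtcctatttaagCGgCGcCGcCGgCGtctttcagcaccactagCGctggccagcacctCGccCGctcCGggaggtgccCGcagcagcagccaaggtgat
Pdx1: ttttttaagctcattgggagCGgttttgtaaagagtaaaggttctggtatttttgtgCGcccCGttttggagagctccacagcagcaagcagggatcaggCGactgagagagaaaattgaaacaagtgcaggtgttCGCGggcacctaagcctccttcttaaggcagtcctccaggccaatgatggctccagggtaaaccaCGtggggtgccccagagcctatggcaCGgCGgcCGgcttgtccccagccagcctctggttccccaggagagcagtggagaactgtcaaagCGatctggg
Cdx2: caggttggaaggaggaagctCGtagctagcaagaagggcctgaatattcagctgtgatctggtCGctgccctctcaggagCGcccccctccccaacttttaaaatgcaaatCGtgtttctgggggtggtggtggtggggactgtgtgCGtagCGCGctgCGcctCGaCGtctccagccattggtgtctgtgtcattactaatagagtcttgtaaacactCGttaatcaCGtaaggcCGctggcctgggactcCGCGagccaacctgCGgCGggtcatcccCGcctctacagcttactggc
Gsx2: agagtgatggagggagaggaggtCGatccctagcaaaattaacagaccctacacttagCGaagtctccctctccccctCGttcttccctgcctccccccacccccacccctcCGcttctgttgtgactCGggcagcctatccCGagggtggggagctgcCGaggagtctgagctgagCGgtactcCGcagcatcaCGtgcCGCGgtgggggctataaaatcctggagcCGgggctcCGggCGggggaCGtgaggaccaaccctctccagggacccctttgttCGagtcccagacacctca
Cdx4: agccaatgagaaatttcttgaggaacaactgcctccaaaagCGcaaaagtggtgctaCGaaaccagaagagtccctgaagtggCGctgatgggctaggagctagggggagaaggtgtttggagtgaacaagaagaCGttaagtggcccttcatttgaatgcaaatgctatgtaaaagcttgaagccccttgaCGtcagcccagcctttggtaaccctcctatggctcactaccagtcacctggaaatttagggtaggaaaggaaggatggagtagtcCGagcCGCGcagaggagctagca

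The Gsx1 promoter (chr5:147188446-147188745, plus strand) and the Cdx2 promoter (chr5:147307200-147307499, minus strand) held 19 and 18 CG dinucleotides. Gsx2 (chr5:75075351-75075650, plus strand) held 17, Pdx1 (chr5:147269847-147270146, plus strand) 11 and Cdx4 (chrX:103321148-103321447, plus strand) 8. These counts surrounded the median of 14 over 20145 promoters of protein-coding genes, and 36.9% of all promoters held fewer CG dinucleotides than Cdx4 and 60.6% fewer than Gsx1. A CG was present in 95.6% of all promoters. The promoters of the members thus stood near the middle of all promoters in CG number. With 15000 EMPs, peaks covered all 300 bases of each of the 5 promoters. With 500 EMPs, the promoters of Gsx1, Pdx1 and Cdx2 were covered in full, that of Cdx4 over 276 bases, and that of Gsx2 over 0 bases, although Gsx2 had peaks on either side.

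All 6 genes carried H3K27me3 at their start in both libraries. With 500 EMPs, a peak lay no more than 3 kb from the GENCODE start of 6 of 6 genes, beside 9.92% of 21938 protein-coding genes. With 15000 EMPs the count was again 6 of 6, beside 17.0% of protein-coding genes. By the distances in the annotated tables the count was also 6 of 6 in each library, beside 9.66% and 16.6%. Without peaks under 500 bp, 5 of 6 genes kept a peak with 500 EMPs, since the widest peak at Cdx4 was 368 bp. The base of the start itself lay in a peak for 4 of the 6 genes with 500 EMPs, the exceptions being Gsx2 and Cdx1, and for all 6 with 15000 EMPs. Among protein-coding genes with a peak within 3 kb, the start base was covered in 14.1% and 50.8%.

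The genes fell into 4 with long and 2 with short coverage at the start. Of the 6001 bp centred on each start, 500-EMP peaks covered 70.5% at Pdx1, 68.8% at Cdx2, 68.4% at Gsx2 and 54.0% at Gsx1. The share was 26.6% at Cdx1 and 14.0% at Cdx4. The median over the 6 genes was 61.2%, beside a median of 13.1% (interquartile range 5.77 to 27.3%) over the 2177 protein-coding genes with a peak. Cdx1 and Cdx4 lay inside that range, and the other 4 genes lay above it. With 15000 EMPs the window was covered over its whole length at Gsx1 and Cdx2, to 96.0% at Gsx2, 94.3% at Pdx1, 67.5% at Cdx4 and 60.8% at Cdx1. The median was 95.2%, beside 45.7% (interquartile range 22.5 to 72.5%) over 3728 genes with a peak, and the same 4 genes lay above the range. Full coverage of this window was found at 139 protein-coding genes with 15000 EMPs and at 4 with 500 EMPs. Among all 21938 protein-coding genes, Pdx1 had rank 59, Cdx2 rank 67, Gsx2 rank 69, Gsx1 rank 152, Cdx1 rank 578 and Cdx4 rank 1038 by the share covered with 500 EMPs. No spread is known for any of these shares, so the order of Pdx1, Cdx2 and Gsx2, which differed by at most a few percentage points, cannot be separated.

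**Figure D1:**
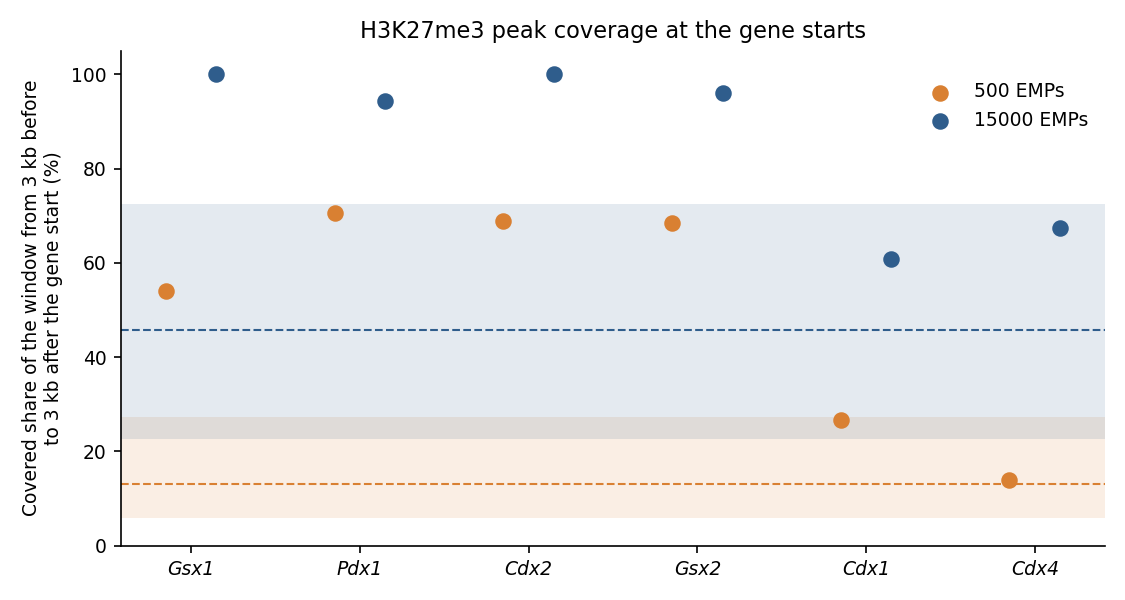
Share of the 6001 bp centred on each gene start that lay in H3K27me3 peaks (%, vertical axis) for the 6 genes, 1 point for each library (500 EMPs orange, 15000 EMPs blue). Dashed lines and shaded bands give the median and interquartile range over protein-coding genes with a peak in that library (medians 13.1% and 45.7%). Gsx1, Pdx1, Cdx2 and Gsx2 lie above the band of their own library in each case, and Cdx1 and Cdx4 lie within it.

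Coverage rose from the 500-EMP to the 15000-EMP library by 1.34-fold at Pdx1, 1.40-fold at Gsx2, 1.45-fold at Cdx2, 1.85-fold at Gsx1, 2.29-fold at Cdx1 and 4.83-fold at Cdx4. Across the 2155 protein-coding genes with a peak in both libraries the median was 4.26-fold (interquartile range 2.55 to 8.25-fold). A share cannot pass 100%, and the 500-EMP shares of the 5 members other than Cdx4 were too high for their ratio to reach this median. Nothing about these 5 genes can therefore be read from their lower ratios.

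Each gene was next described by its own peaks. Gsx1, which acts in neural progenitors (chr5:147188696-147190947, plus strand), had 5 peaks of the 500-EMP library in the gene or within 20 kb. The peak over its start was 1775 bp wide and reached from 1595 bp before to 179 bp after it, and the next began 1686 bp after the start, beyond the coding sequence, which was covered to 0%. With 15000 EMPs a single peak of 7531 bp (chr5:147184461-147191991) contained the whole gene. Counting peaks within 3 kb of each other as 1 domain, the Gsx1 domain spanned 9.51 kb with 500 EMPs and 12.3 kb with 15000 EMPs.

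Pdx1, the pancreatic and duodenal factor (chr5:147269959-147275848, plus strand), was covered over 86.6% of its body with 500 EMPs and 94.5% with 15000 EMPs. The widest 500-EMP peak of any member, 4107 bp, began 675 bp after its start. The antisense transcript Plut overlaps the Pdx1 start, and peaks there cannot be assigned to either gene. The domain spanned 12.3 kb and 13.8 kb and ended 8.88 kb and 8.99 kb after the start, so the downstream edges of both libraries lay close together.

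Cdx2 (chr5:147300805-147307270, minus strand) had the longest covered length of the members in the gene and its 20-kb flanks in both libraries. The widest peak of all members, 12646 bp (chr5:147298109-147310754), contained the whole gene with 15000 EMPs, and 5 peaks of the 500-EMP library overlapped it. The widest 500-EMP peak at Cdx2 reached from 3989 bp before to 109 bp after its start, and the body was covered to 70.4%. In all, 13.6 kb with 500 EMPs and 24.3 kb with 15000 EMPs were covered in the gene and its 20-kb flanks, which had rank 104 and rank 169 of all protein-coding genes. The domain spanned 19.5 kb and 27.7 kb. Upstream it ran through the intergenic stretch toward Urad, a gene of uric acid breakdown, of which 78.3% and 96.1% was covered. It continued into the Urad body, of which 2237 bp and 5244 bp of 7457 bp were covered, and with 15000 EMPs the last peak of the domain covered the Urad start.

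Gsx2, the forebrain member that specifies striatal progenitors (chr5:75075601-75077893, plus strand), had 12 peaks with 500 EMPs and 4 with 15000 EMPs. A 15000-EMP peak of 8625 bp ran from 8126 bp before to 498 bp after the start and held 6 peaks of the 500-EMP library. Domains spanned 19.5 kb and 21.3 kb and extended 12.3 kb and 13.1 kb downstream of the start, well past the gene, which is 2293 bp long. Gsx2 stood apart on its upstream side, where the next peak lay 1415 kb away with 500 EMPs and 1413 kb away with 15000 EMPs. On its downstream side the next peak lay 59.9 kb and 57.7 kb away, at Pdgfra.

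Cdx1, on chromosome 18, acts with Cdx2 in the posterior axis and the intestine (chr18:61018862-61036199, minus strand). It had 2 peaks of the 500-EMP library at its start, 1279 bp wide from 1453 to 175 bp before it and 315 bp wide inside the first part of the gene. With 15000 EMPs both were contained in a single peak of 3649 bp. The remaining 17338-bp gene was largely free of peaks, with 1.82% and 8.42% of the body covered. The other 4 peaks of each library that counted for Cdx1 by distance lay more than 19 kb after its start, and the annotated tables gave them to Slc6a7, a proline transporter gene of brain. They are thus no part of the coverage at Cdx1 itself.

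Cdx4 (chrX:103321398-103330592, plus strand), the member most closely tied to blood formation in fish and mouse embryo models, had the lowest coverage of the members with 500 EMPs, whereas with 15000 EMPs its window at the start was covered to a larger share than that of Cdx1. With 500 EMPs it had 3 peaks of 368, 333 and 137 bp, of which the second spanned the start and the last had the smallest width of that list. With 15000 EMPs it had a peak of 189 bp and a peak of 3872 bp that ran from 860 bp before to 3011 bp after the start. The upstream peaks of both libraries, 368 bp and 189 bp, did not overlap each other. The X chromosome as a whole carried fewer peaks, with 4.64% and 9.60% of its protein-coding genes having a peak within 3 kb, beside 10.3% and 17.5% on autosomes, and the part of this in the Cdx4 values was not tested. Mice of both sexes were used in the study, and the sex of the profiled cells is not given.

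**Figure D2:**
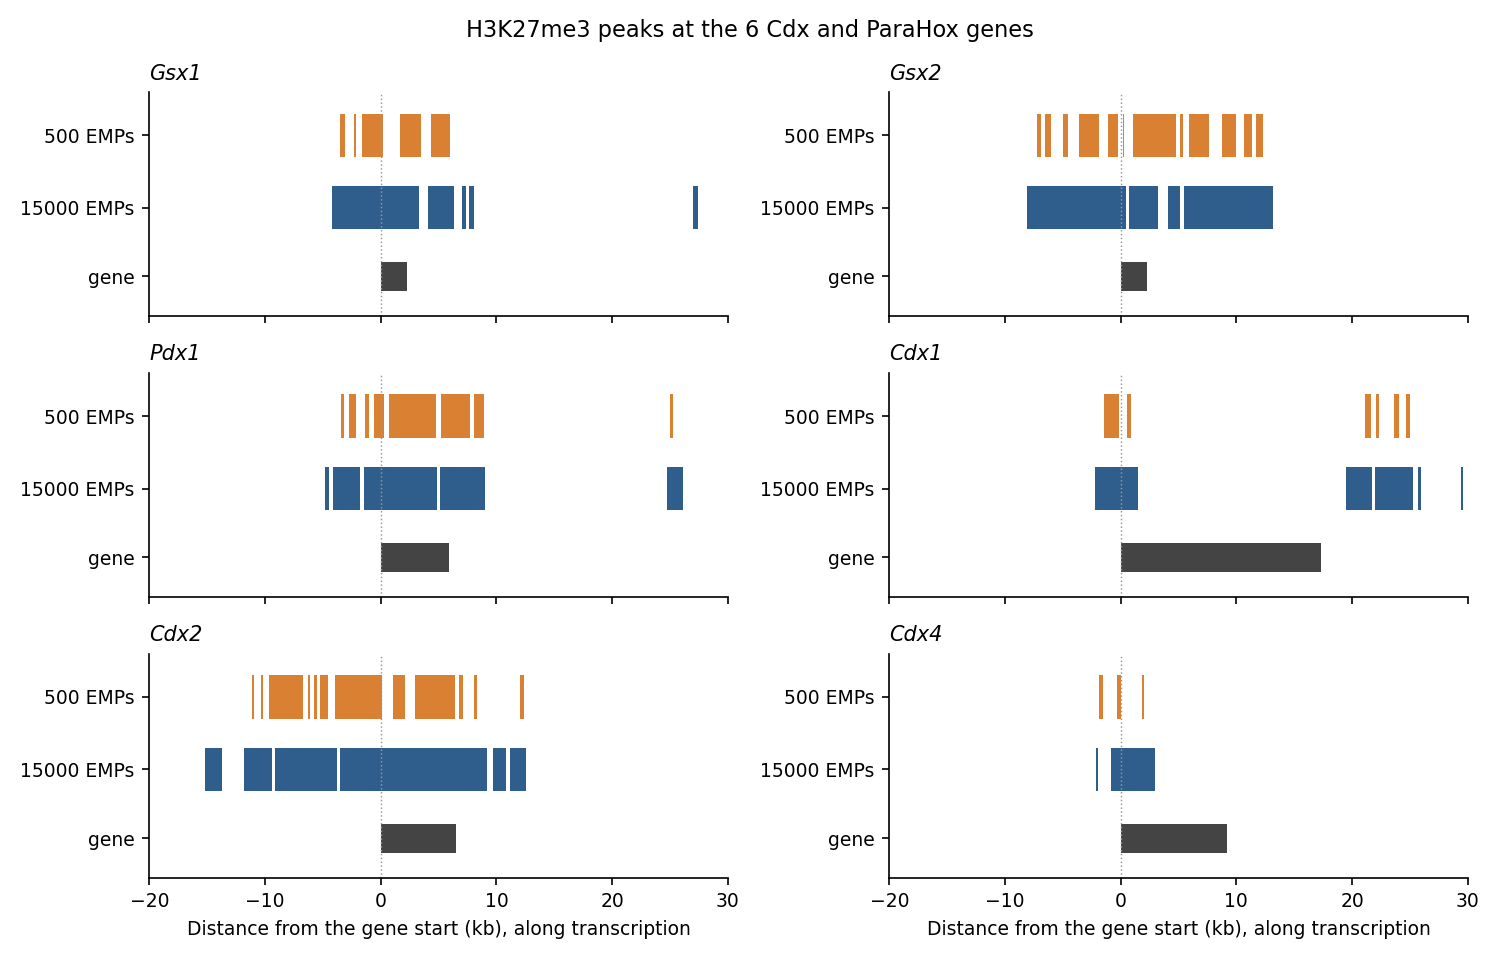
H3K27me3 peaks (bars) of the libraries from 500 EMPs (orange) and 15000 EMPs (blue) at each gene, with the gene body in grey. The horizontal axis gives distance from the gene start in kb along the direction of transcription, from 20 kb before to 30 kb after it. Long domains surround Gsx1, Pdx1, Cdx2 and Gsx2, whereas Cdx1 and Cdx4 have peaks at the start, and the bars 19 kb and more after the Cdx1 start are those at Slc6a7.

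Coding sequence was covered unevenly. With 500 EMPs, peaks covered 51.9% of the coding bases of Gsx2, 45.2% of Pdx1, 42.3% of Cdx2 and 0% of Gsx1, Cdx1 and Cdx4. With 15000 EMPs the shares were 100% at Gsx1 and Cdx2, 95.2% at Pdx1, 74.0% at Gsx2, 58.6% at Cdx4 and 55.3% at Cdx1. Upstream and downstream sides of the start also differed between genes. At Cdx2 with 500 EMPs, all 3000 bp before the start were covered and 1130 bp after it, while at Pdx1 1615 bp before and 2615 bp after the start were covered. With 15000 EMPs Cdx4 had 1049 bp before and 3000 bp after its start in peaks, and Cdx1 had 2189 bp and 1459 bp.

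As over the whole lists, most 500-EMP member peaks lay where the 15000-EMP library had a peak, whereas much of the 15000-EMP coverage had no 500-EMP counterpart. Of the 49 peaks of the 500-EMP library, 48 shared 1 bp or more with a 15000-EMP peak (98.0%, 95% Wilson interval 89.3 to 99.6%), beside 91.2% of its whole list. The exception was the upstream peak at Cdx4. Of the 33 peaks of the 15000-EMP library, 19 overlapped a 500-EMP peak (57.6%, 95% interval 40.8 to 72.8%), beside 32.2% of its whole list. These shares depended on what counts as overlap. With at least 50% of both peaks they were 8.16% and 12.1%, with at least 50% of the 15000-EMP peak the latter was 27.3%, and with peaks within 3 kb joined they were 100% and 81.8%. The intervals cover counting error alone and treat neighbouring peaks as independent, which they are not. The 14 without a counterpart were 189 to 1421 bp wide, whereas 14 others overlapped 2 to 6 peaks of the 500-EMP library and were at least 1095 bp wide. In bases, 43.8 kb were shared, 94.1% of the 46.5 kb covered with 500 EMPs and 49.4% of the 88.6 kb covered with 15000 EMPs, beside 93.0% and 23.1% over the whole lists. For 500 EMPs the share of bases was thus close to that of the whole list, whose 91.2% of peaks also lay inside the interval above. Member peaks with 15000 EMPs were wider, with a median of 1421 bp beside 770 bp over the whole list. The part of this in their larger overlap was not tested. Joining peaks within 3 kb left 10 and 11 regions from the 49 and 33 peaks, so peak numbers reflected how domains were cut.

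The ParaHox cluster was then read as a unit, from the start of Gsx1 to the start of Cdx2. This stretch of 119 kb (chr5:147188696-147307270) held 3 protein-coding genes. Peaks covered 16.3% of it with 500 EMPs and 30.9% with 15000 EMPs. The coverage formed a separate domain at each gene, with an additional group of peaks between Gsx1 and Pdx1. Outside these, a 276-bp peak of the 500-EMP library lay 3764 bp beyond the Cdx2 domain, and a 406-bp peak of the 15000-EMP library lay 26979 bp after the Gsx1 start. In the 79.0 kb between Gsx1 and Pdx1, 6.96% and 17.8% was covered, and in the 24956 bp between Pdx1 and Cdx2, 13.6% and 33.2%. The longest stretch without a peak measured 42.6 kb with 500 EMPs and 38.3 kb with 15000 EMPs and ended at the upstream edge of the Pdx1 domain. The next longest, of 26.6 kb and 18.9 kb, followed the Gsx1 domain, and another, of 16.1 kb and 15.8 kb, followed the Pdx1 domain.

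The additional group lay 32 to 38 kb after the Gsx1 start, where no gene start of a protein-coding gene is annotated. With 500 EMPs it held 3 narrow peaks of 137, 391 and 273 bp. With 15000 EMPs it held peaks of 266, 2748, 394, 1056 and 993 bp, of which the widest (chr5:147220900-147223647) contained or touched all 3. A similar group of peaks lay about 33 kb before the Gsx1 start, with 1 peak of 411 bp with 500 EMPs and peaks of 621 and 858 bp with 15000 EMPs. Both groups were seen in both libraries.

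CG content followed the domains in part. In bins of 1 kb from 40 kb before Gsx1 to beyond Urad, the median was 20 CG dinucleotides per kb in the 56 bins that were at least 50% covered with 15000 EMPs and 11 in the 115 bins without coverage. For 500 EMPs the medians were 20 in 29 bins and 11 in 135 bins. Bins covered to less than 50% had a median of 23 with 500 EMPs (20 bins) and of 10 with 15000 EMPs (13 bins), so CG number did not rise steadily with coverage. All 10 bins with 40 or more CG dinucleotides, a limit chosen after the values were seen, were touched by a peak in each library. Covered bins with as few as 4 CG dinucleotides per kb were present as well, and neighbouring bins are not independent.

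**Figure D3:**
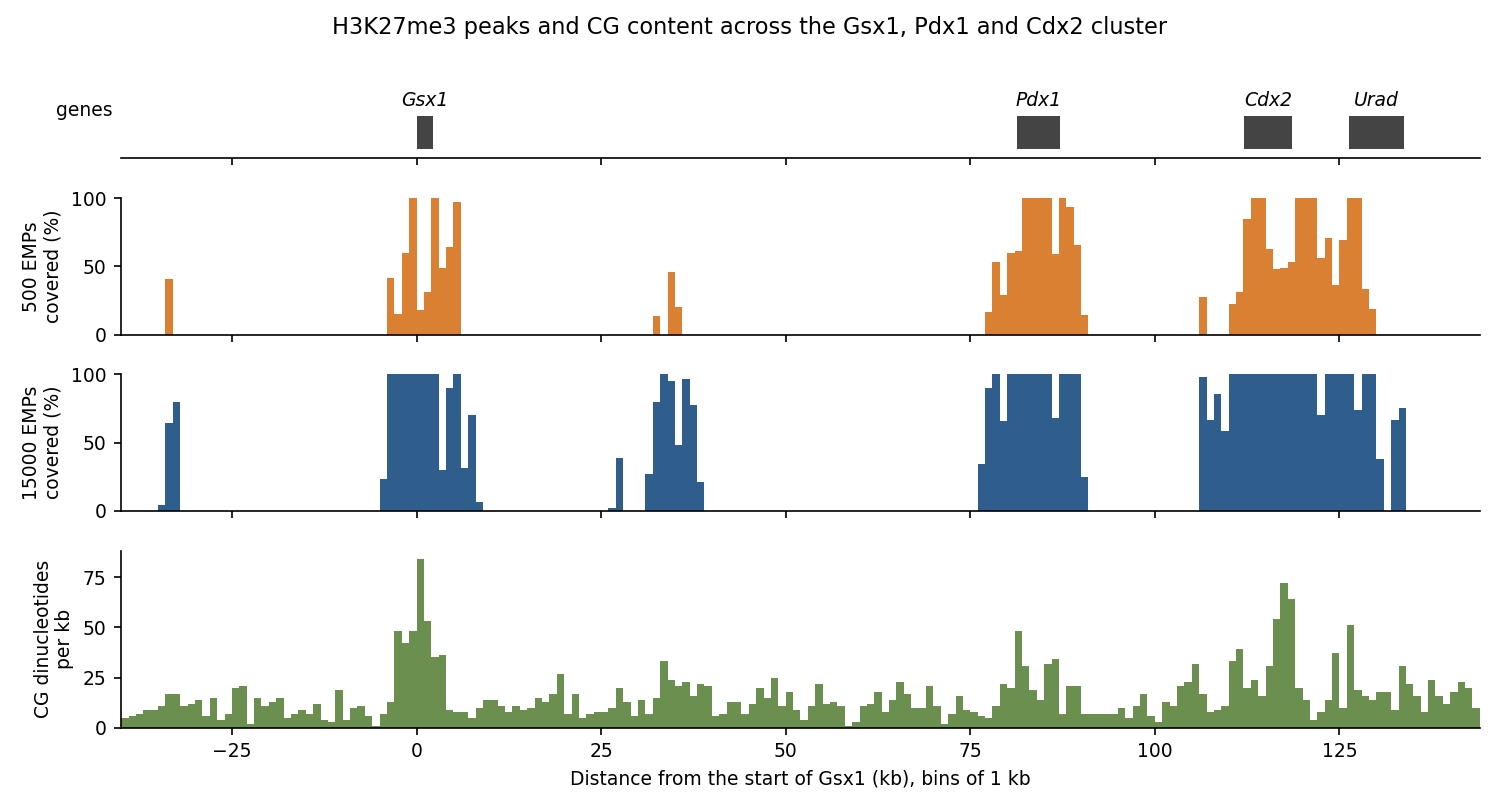
Genes, share of each 1-kb bin covered by H3K27me3 peaks (%) with 500 EMPs (orange) and 15000 EMPs (blue), and CG dinucleotides per kb (green) across the ParaHox cluster. The horizontal axis gives distance from the Gsx1 start in kb. Coverage stands in separate blocks at Gsx1, at Pdx1 and from Cdx2 into Urad, with a smaller block about 32 to 38 kb after the Gsx1 start and long stretches without a peak between them.

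Hox clusters, measured from the first to the last Hox gene in the same way, were covered to a larger share. With 500 EMPs the values were 33.0% for Hoxb, 56.4% for Hoxd, 66.3% for Hoxa and 76.8% for Hoxc, and with 15000 EMPs 58.3%, 87.0%, 93.3% and 96.8%. These clusters held 9 to 13 protein-coding genes in 96.8 to 174 kb. Their longest stretch without a peak with 15000 EMPs was 0.687 kb in Hoxc, 0.921 kb in Hoxa, 5.21 kb in Hoxd and 17.2 kb in Hoxb. With 500 EMPs it was 2.75 kb in Hoxc, 11.4 kb in Hoxa, 7.65 kb in Hoxd and 39.3 kb in Hoxb. Without Hoxb13, which lies apart from the other Hoxb genes, the longest stretch in Hoxb was 12.2 kb with 500 EMPs and 7.17 kb with 15000 EMPs. At the gene starts the values lay closer together. The median share of the 6-kb window over the 39 Hox genes was 67.9% and 94.5%, beside 61.2% and 95.2% over the 6 Cdx and ParaHox genes.

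**Figure D4:**
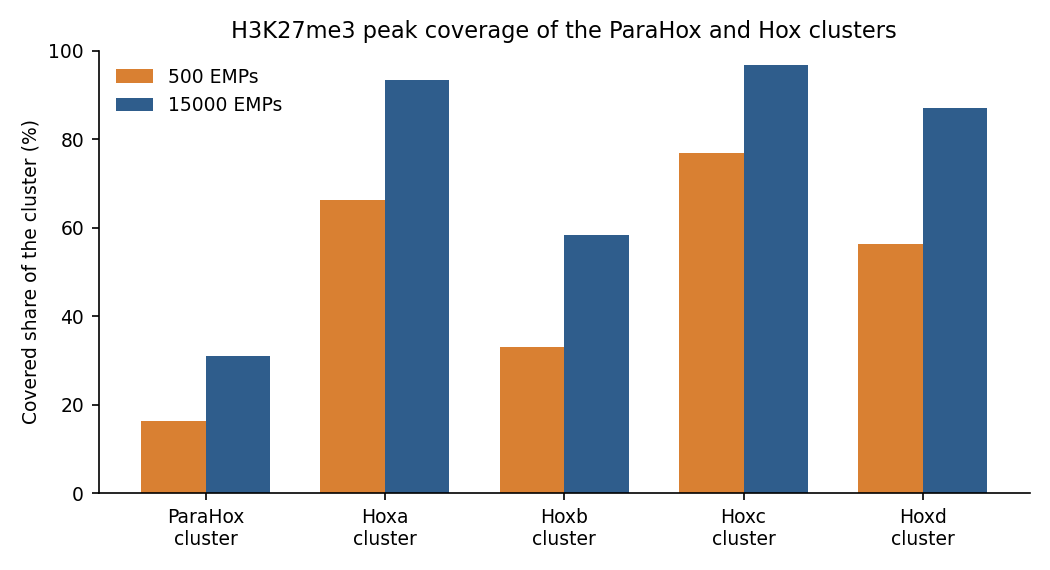
Share of each gene cluster covered by H3K27me3 peaks (%, vertical axis from 0) with 500 EMPs (orange) and 15000 EMPs (blue), 1 library each and therefore without error bars. The ParaHox cluster has the lowest bars, 16.3% and 30.9%, and the Hoxc cluster the highest, 76.8% and 96.8%.

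Receptor tyrosine kinase genes, several of which serve blood or vessels, lie in the surroundings of Cdx2, Gsx2 and Cdx1, so the flanks were examined. Of 18 neighbouring genes, 5 (27.8%) carried a peak no more than 3 kb from the start with 500 EMPs and 7 (38.9%) with 15000 EMPs, beside 9.92% and 17.0% of protein-coding genes. The peaks at the starts of Slc6a7 and Urad also belong to Cdx1 and Cdx2 by the 20-kb rule, so they are counted here again. The noncoding gene Xist is among the 18 and had no peak there. Within 1 kb of the start, 3 of the 18 were left with 500 EMPs. The 95% Wilson intervals, 12.5 to 50.9% and 20.3 to 61.4%, reached down close to these shares. Flt1, a VEGF receptor gene, Flt3, a receptor gene of early blood progenitors, Pdgfra, the PDGF receptor gene of mesenchyme, and Slc6a7 had a peak in both. Urad, Kdr and Nap1l2 had one with 15000 EMPs alone, and Chic1 with 500 EMPs alone.

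Coverage of the 6-kb window at Flt3 was 5.82% with 500 EMPs and 62.5% with 15000 EMPs. The Cdx2 domain did not run on to it, since 80.2 kb and 75.7 kb without a peak lay between them and the 8.3 kb between Urad and Flt3 held 0 bp and 9 bp of peak. At Pdgfra, 74.4 kb from Gsx2, coverage of the window was 25.5% and 100%. Kit, the receptor gene by which EMPs are sorted, lies 497 kb from Gsx2 on the same chromosome and had its nearest peak 421 kb and 403 kb from its start. At Cdx1 the neighbours Pdgfrb and Csf1r, the macrophage growth factor receptor gene, had no peak within 3 kb of the start in either library, although Pdgfrb begins 8.95 kb from Cdx1. The upstream edge of the Cdx1 domain was followed by 1137 kb and 363 kb without a peak. At Cdx4, Chic1 was covered to 8.58% of the window with 500 EMPs and to 0% with 15000 EMPs, Nap1l2 to 0% and 25.3%, and Tsx and Xist to 0% in both.

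The programmes in which the members act were set beside them, to be read against the 9.92% and 17.0% of protein-coding genes with a peak in the same window. Of 14 ventral forebrain genes, partners of Gsx1 and Gsx2, 13 had a peak in both libraries, among them Dlx1, Dlx2, Olig2 and Nkx2-1, and Gad1, an enzyme of GABA synthesis, had none in this window. Peaks lay farther inside Gad1 and covered 10.3% and 24.3% of its body, so an empty window does not mean a gene free of the mark. Of 18 pancreas genes, 14 (77.8%) had a peak with 500 EMPs and 15 (83.3%) with 15000 EMPs. Regulators such as Ptf1a, Nkx6-1, Neurog3 and Mnx1 carried a peak, Pax4 did so with 15000 EMPs alone, and the hormone genes Ins1, Ins2 and Gcg had none. Of 12 genes of the tail bud and axis elongation, 6 (50%) and 8 (66.7%) had a peak. T, Wnt3a, Fgf8, Cyp26a1, Sp5 and Nkx1-2 had one in both libraries and Sall4 and Rarg with 15000 EMPs alone, whereas Tbx6 and Msgn1 were among the 4 with none. Fgf4, also among these 4, had 8.79% and 31.5% of its body covered. By the distances in the annotated tables the counts were 7 and 9.

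Of 12 intestine genes, 5 (41.7%) had a peak in each library, beside 9.92% and 17.0% of protein-coding genes, among them Lgr5, Gata4, Gata6 and Onecut2. Hnf4a and the epithelial genes Cdh17, Isx and Vil1 were among the 7 with none. Within 1 kb of the start, 3 intestine genes were left with 500 EMPs. Of the 39 Hox genes, on which Cdx factors act, 38 and 39 had a peak, Hoxb3 being added with 15000 EMPs. With 500 EMPs, 24.9% of the Hoxb3 body was covered, and 39 Hox genes had a peak within 5 kb of the start.

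Of the EMP marker genes, 0 of 12, among them Kit, Itga2b, Fcgr2b, Fcgr3, Ptprc, Runx1, Myb, Spi1, Gata1 and Gfi1b, had a peak within 3 kb in either library (95% Wilson interval 0 to 24.2%). With 12 genes even 0, the lowest possible count, gives an interval that contains the shares over all protein-coding genes, 9.92% and 17.0%. The list is therefore too short to show whether these markers have fewer peaks than other genes. The nearest to any of them was a peak 4.12 kb and 4.06 kb from the start of Fcgr3. Peak lists cannot measure the expression of these markers. Among markers of other cells of the yolk sac, a peak was present at 2 and 3 of 10 endothelial markers, at 3 of 10 endoderm markers and at 5 of 10 markers of mesenchyme and mesothelium in each library.

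**Figure D5:**
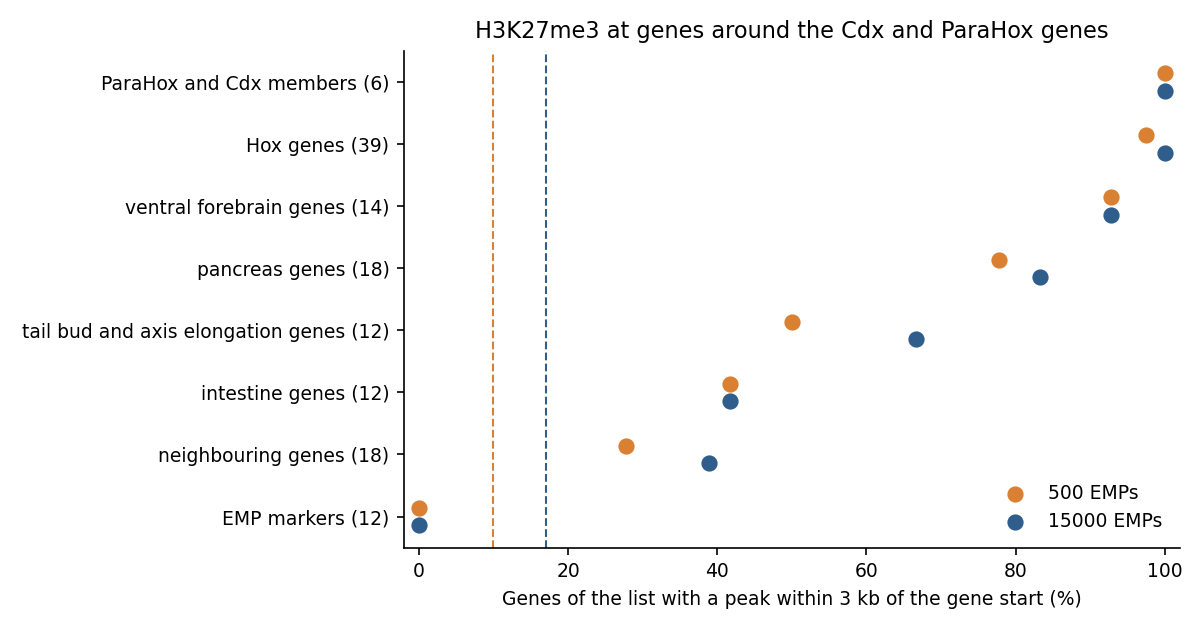
Share of the genes of each list with an H3K27me3 peak within 3 kb of the gene start (%, horizontal axis) with 500 EMPs (orange) and 15000 EMPs (blue), with the number of genes in parentheses. Dashed lines give the share of all protein-coding genes, 9.92% and 17.0%. The 6 members lie at 100%, the ventral forebrain list at 92.9% and the EMP markers at 0%.

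Finally, the genes whose peak profile was most like that of each member were sought, by the mean absolute difference in covered share over 80 bins (500 bp each, reaching 10 kb to each side of the start, in both libraries). For Gsx1 these were Galnt16, Wnt11 and Sema5b, at differences of 13.0 to 14.7 percentage points, where the median gene lay at 40.7. For Pdx1 they were Six6, Pitx1 and Tbx4 (15.2 to 17.2), for Cdx2 Pax3, Msx1 and Hoxa10 (17.0 to 18.8), and for Gsx2 Foxa1, Neurog2 and Irx2 (19.0 to 19.9). Genes within 50 kb of a member were left out. For Cdx1 the nearest were L3mbtl4 and Ano4 (3.46 and 3.54), and for Cdx4 Mesp1, Tigd4 and Tdrd6 (2.46 to 2.93). These smaller differences went with shorter coverage, since the median gene lay at 13.1 from Cdx1 and 12.2 from Cdx4. Among the members, Cdx1 and Cdx4 were closest to each other (11.2 percentage points), which was little below the 13.1 and 12.2 of the median gene. Next came Gsx1 and Pdx1 (24.6), and Cdx2 and Cdx1 were farthest apart (68.2). The profile of Cdx2 was therefore less like those of its family members Cdx1 and Cdx4 (67.5) than like that of Gsx2 (32.2).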

How the data were processed

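H3K27me3 was profiled by CUT&RUN in E10.5 yolk sac EMPs, with 1 library from 500 cells and 1 from 15000 cells, and groups were taken from the sample titles. The authors aligned reads to mm10 (GRCm38) with Bowtie2 (version 2.2.1). Broad peaks were called by them in each library against IgG, using MACS2 (version 2.1.2) at a threshold of 0.01 (500 EMPs) or 0.05 (15000 EMPs) on its p-value. In the command listing of the reporting summary the cell numbers stand the other way round, and the labels of the peak lists were followed here. The deposited peak lists and annotated tables used here hold peak coordinates and, per the file headers, a ChIPpeakAnno distance and gene for each peak, without heights, counts or p-values per peak. Signal tracks were not used here. The smallest peak width was 137 bp with 500 EMPs and 171 bp with 15000 EMPs.

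Coordinates are 1-based on mm10. Ends in the annotated tables lay 1 bp above those of the peak lists, which were used. No peak of either list ran past a chromosome end of GRCm38. Gene starts came from GENCODE vM21, and promoter sequences from RefSeq. Covered lengths, overlaps (at least 1 bp) and domains (peaks within 3 kb joined) were computed in Python version 3.11.15 with NumPy version 2.4.6, and Wilson intervals with SciPy version 1.17.1. The coverage code was tested on simulated peaks. Named were all 6 members, the listed neighbours, up to 10 genes of each other list, and the 3 genes nearest to each member by profile, except that some genes are not reported here. The members and lists were chosen with earlier results of these data known.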

Additional observations from a re-analysis of the deposited data

How the results depend on the processing

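In all, 32 values were recomputed under 144 alternatives. Numbers and covered shares were held to a ratio of 1.5 and overlap shares to the 95% interval, which 125 alternatives kept and 19 left. A peak lay at 6 of 6 genes under every alternative window, distance or width run, except that 5 of 6 kept one with 500 EMPs without peaks under 500 bp. Joining peaks within 3 kb gave 10 regions (500 EMPs) and 11 (15000 EMPs), raised the median covered share with 500 EMPs to 100% and the ParaHox cluster with 500 EMPs to 24.9%, and gave overlap shares of 100% of the 500-EMP and 81.8% of the 15000-EMP regions. Joining within 1 kb gave 17 and 13 regions. Without peaks under 500 bp, 22 member peaks were left with 500 EMPs, of which 100% overlapped. With at least 50% of both peaks, 8.16% of the 500-EMP and 12.1% of the 15000-EMP peaks overlapped, and with at least 50% of the query peak 27.3% of the 15000-EMP peaks. A window of 1 kb left 3 intestine genes and 3 neighbouring genes with 500 EMPs and 0 Polycomb subunit genes in both libraries. A window of 5 kb added 1 EMP marker, Fcgr3, in each library. The cause of these changes was not tested. No stricter threshold could be set because the peak lists hold no scores or depths. No paired analysis was possible because each group had 1 library.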

Other observations

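Among 7 genes for subunits of Polycomb repressive complex 2 and its cofactors, Ezh1 had a peak within 3 kb of its start in both libraries, over 7.18% and 3.48% of the window, and Ezh2, Eed, Suz12, Rbbp4, Rbbp7 and Jarid2 had none. The count of 1 of 7 (14.3%, 95% Wilson interval 2.57 to 51.3%) did not stand apart from the 9.92% and 17.0% of protein-coding genes, and no peak was left at Ezh1 within 1 kb. Among the markers of other yolk sac cells, the peaks were at Sox7 and Sox17 in both libraries and at Kdr with 15000 EMPs alone (endothelium), at Foxa1, Foxa2 and Amn in both (endoderm), and at Col1a1, Pdgfra, Hand1, Wt1 and Tbx18 in both (mesenchyme and mesothelium). Afp, Ttr, Apoa1 and Apob, secreted products of the visceral endoderm, had none, and neither did Cdh5, Pecam1, Tek and Tie1, which mark endothelium.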
